A study of Mus musculus with 17 samples.

Results

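JUNB is a leucine zipper subunit of the transcription factor AP-1. In macrophages grown from mouse bone marrow, 537 of the 5556 JUNB peaks listed after 4 h of interferon gamma plus interleukin 4 (IFNg+IL4) overlapped by 1 bp neither a JUNB peak listed after 4 h of IFNg nor a JUNB peak of untreated cells. These 537 regions, 9.67% of their list and a small part of the 144384 peaks in the 16 ChIP lists, are called the combination sites here. They were chosen on the JUNB lists, so that their absence from the other JUNB lists is their definition. JUNB binding after IL4 alone was not analysed here, so a combination site may or may not also be a site of IL4 alone.

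The cells came from wild-type C57BL/6 mice, were grown in medium conditioned by L929 cells and were used on day 7 of differentiation. The JUNB groups were untreated cells, cells with IFNg (100 ng/ml) for 4 h, and cells with IFNg (100 ng/ml) and IL4 (10 ng/ml) for 4 h. CEBPB and IRF1 were mapped in the same 3 conditions. STAT6 was mapped after 2 h of IL4 (10 ng/ml) or of IL4 with IFNg (100 ng/ml), so JUNB and STAT6 were never mapped at the same time point. The MYC libraries came from untreated cells and from cells given IL4 or IFNg+IL4 for 2 h or 4 h, and 1 untreated input library served as control. Each group was 1 library, so no test between groups was possible and no p-value is given for any comparison. Intervals are exact 95% Clopper-Pearson intervals that cover counting error only. No RNA was measured in these libraries, so the cell type was not checked against markers.

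IL4 acts through a receptor that activates STAT6, which binds a palindrome and switches on genes of alternative activation such as Arg1. IFNg induces IRF1 and drives the classical, antimicrobial form of activation. AP-1 dimers such as JUNB with FOS or BATF proteins bind enhancers together with the lineage and signal-dependent factors of the cell, and JUNB is itself induced by IL4 and by inflammatory signals in macrophages.

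Sequences could be printed only at promoters, where the RefSeq table of GRCm38.p6 gives them. Of 32851 windows, each from 250 bases before to 50 bases after a start, 16 windows of 15 gene symbols held the summit of a combination site. The lines below show the 250 bases before the start, 5′ to 3′ on the gene's strand, for 7 of these genes, chosen after their sequences were seen because the window held a STAT6-type or an AP-1-type match. Capitals mark matches on either strand to the AP-1 letters TGANTCA, the STAT6 letters (TTC, any 4 bases, GAA), the C/EBP letters TTGCNNAA and the IRF letters (GAAA, any 2 bases, GAAA).
Tfec (chr6:16898442-16898691, minus strand): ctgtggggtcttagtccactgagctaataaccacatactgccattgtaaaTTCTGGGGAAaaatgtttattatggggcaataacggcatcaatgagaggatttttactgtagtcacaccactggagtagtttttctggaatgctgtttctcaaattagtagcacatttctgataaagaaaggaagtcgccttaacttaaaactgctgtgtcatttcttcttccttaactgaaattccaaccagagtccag
Tbxas1 (chr6:38918736-38918985, plus strand): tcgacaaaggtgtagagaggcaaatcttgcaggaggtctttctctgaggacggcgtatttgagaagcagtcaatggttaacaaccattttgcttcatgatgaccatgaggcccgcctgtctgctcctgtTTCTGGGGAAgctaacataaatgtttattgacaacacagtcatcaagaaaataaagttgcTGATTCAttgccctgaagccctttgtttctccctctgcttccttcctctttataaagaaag
Pdcd1lg2 (chr19:29410669-29410918, plus strand): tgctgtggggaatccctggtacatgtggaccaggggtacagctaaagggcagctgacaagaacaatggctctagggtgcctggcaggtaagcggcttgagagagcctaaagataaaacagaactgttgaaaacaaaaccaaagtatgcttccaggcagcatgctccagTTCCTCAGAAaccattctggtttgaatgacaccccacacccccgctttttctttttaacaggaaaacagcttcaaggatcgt
Ralgds (chr2:28533214-28533463, plus strand): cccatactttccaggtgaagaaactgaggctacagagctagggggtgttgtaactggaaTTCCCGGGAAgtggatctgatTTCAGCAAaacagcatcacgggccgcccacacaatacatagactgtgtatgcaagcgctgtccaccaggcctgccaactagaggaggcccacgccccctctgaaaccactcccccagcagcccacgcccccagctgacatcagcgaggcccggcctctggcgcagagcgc
Ifi203 (chr1:173942673-173942922, minus strand): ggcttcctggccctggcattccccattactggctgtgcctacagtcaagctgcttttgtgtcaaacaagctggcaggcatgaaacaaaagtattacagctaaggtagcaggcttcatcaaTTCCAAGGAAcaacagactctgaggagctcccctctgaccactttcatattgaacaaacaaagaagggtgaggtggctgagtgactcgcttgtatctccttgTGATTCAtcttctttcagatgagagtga
Ifi205 (chr1:174031756-174032005, minus strand): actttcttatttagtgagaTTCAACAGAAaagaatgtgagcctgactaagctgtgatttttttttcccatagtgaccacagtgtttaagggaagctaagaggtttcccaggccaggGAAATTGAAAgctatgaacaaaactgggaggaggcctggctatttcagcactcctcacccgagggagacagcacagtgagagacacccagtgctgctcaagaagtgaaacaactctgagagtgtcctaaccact
Zyx (chr6:42349578-42349827, plus strand): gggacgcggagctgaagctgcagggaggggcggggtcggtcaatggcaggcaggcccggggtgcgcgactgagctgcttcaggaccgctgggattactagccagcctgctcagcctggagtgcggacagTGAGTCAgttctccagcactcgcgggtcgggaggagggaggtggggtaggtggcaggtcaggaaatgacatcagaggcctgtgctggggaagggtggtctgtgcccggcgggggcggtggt
Tfec encodes a macrophage factor of the MiT family, Tbxas1 thromboxane A synthase, Pdcd1lg2 the PD-1 ligand PD-L2, Ralgds an exchange factor for Ral GTPases and Zyx the focal adhesion protein zyxin. Ifi203 and Ifi205 are interferon-inducible genes of the same family. The same 10 letters, TTCTGGGGAA, stood 200 bases before the Tfec start and 121 bases before the Tbxas1 start, 54 and 65 bp from the JUNB summits. In Ralgds the STAT6-type match TTCCCGGGAA was 11 bp and the C/EBP-type match 9 bp from the summit. The AP-1-type match TGATTCA was 7 bp from the summit at Tbxas1 and 8 bp from it at Ifi203, and TGAGTCA was 37 bp from it at Zyx. At Pdcd1lg2, TTCCTCAGAA was 63 bp from the summit. All of these matches lay inside the JUNB peak except the STAT6-type match of Tbxas1.

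Over the whole 300-base windows, the STAT6 letters occurred in 6 of the 16 windows under combination sites (37.5%), beside 6.95% of all 32851 windows. They occurred in 10 of 90 windows (11.1%) holding a summit of the JUNB peaks found in all 3 JUNB lists, in 2 of 16 (12.5%) for peaks listed also with IFNg and not untreated, and in 2 of 11 (18.2%) for peaks listed also untreated and not with IFNg. The AP-1 letters were in 4 of 16 windows (25%) under combination sites, beside 7.81% of all windows. In those other classes they were in 48 of 90 (53.3%), 4 of 16 (25%) and 4 of 11 (36.4%), so the share under combination sites equalled that of the peaks listed also with IFNg and not untreated. The IRF letters were in 4 of the 16 windows (25%, all windows 3.44%) and the C/EBP letters in 1 (6.25%, all windows 10.8%). The 2 windows of Ifi203 overlap and share the same AP-1-type match, so the 4 windows with the AP-1 letters stand for 3 genes. With 16 windows these are descriptions, and a match is not evidence of a bound site.

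The other 5019 peaks of the list served as comparison. They comprised 3130 common peaks, found in all 3 JUNB lists, 1475 IFNg-shared peaks, found also with IFNg and not untreated, and 414 untreated-shared peaks, found also in untreated cells and not with IFNg. The JUNB lists held 9229 peaks (untreated), 7428 (IFNg) and 5556 (IFNg+IL4). The untreated list had been thresholded on p and the others on q, and 5355 untreated peaks met the q threshold of the others. Relative to the input, the depths of these libraries as recovered from the peak columns were 1.55, 1.01 and 1.23, which puts the depth of IFNg+IL4 at 1.22 times that of IFNg and at 0.792 times that of the untreated library. The part of depth in the absence of combination sites from the IFNg list was not tested.

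Combination sites were weaker and narrower than the common peaks. Their −log10 p, as given by the authors' peak caller, ran from 5.27 to 46.1 with a median of 11.4, beside medians of 18.8 for common, 15.2 for IFNg-shared and 11.2 for untreated-shared peaks. Their median fold enrichment over input at the summit was 6.05 (range 2.83 to 19.1) and their median width 187 bp (143 to 505). For 460 of them the number of fragments at the summit could be recovered, with a median of 24 and a range of 11 to 63. The strongest ranked 475 of 5556. When the list was split into 10 equal classes by −log10 p, they made up 20.1% of the weakest class and 0.360% of the strongest, 2 peaks.

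The rule has an edge at 1 bp. The closest combination sites lay 42 bp (3 sites), 75 bp and 78 bp from a peak of another JUNB list, and the closest peaks on the other side of the edge shared 18, 30, 35, 36 and 42 bp with one. Few sites were that close: 27 of 537 had another JUNB list's peak within 500 bp, 45 within 1 kb and 206 within 10 kb. The median gap was 18.3 kb, and 91 sites had none within 100 kb.

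STAT6 peaks covered most combination sites. In the STAT6 list of IFNg+IL4, 407 of the 537 (75.8%, 71.9 to 79.4) had an overlapping peak, beside 66.3% of all 5556 JUNB peaks. In the STAT6 list of IL4 alone, 361 (67.2%, 63.1 to 71.2) had one, beside 62.5% of all. The figure for the IFNg-shared peaks was much lower, 45.7% (43.1 to 48.3) with IFNg+IL4 and 32.7% (30.3 to 35.1) with IL4. Common peaks stood close to the combination sites with IFNg+IL4, at 74.5%, and above them with IL4, at 74.9% (73.3 to 76.4). Untreated-shared peaks stood at 64.7% with IFNg+IL4 and 69.3% with IL4. Thus a high STAT6 share was not particular to the combination sites, and the low values were those of the peaks listed with IFNg and not in untreated cells.

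**Figure D1:**
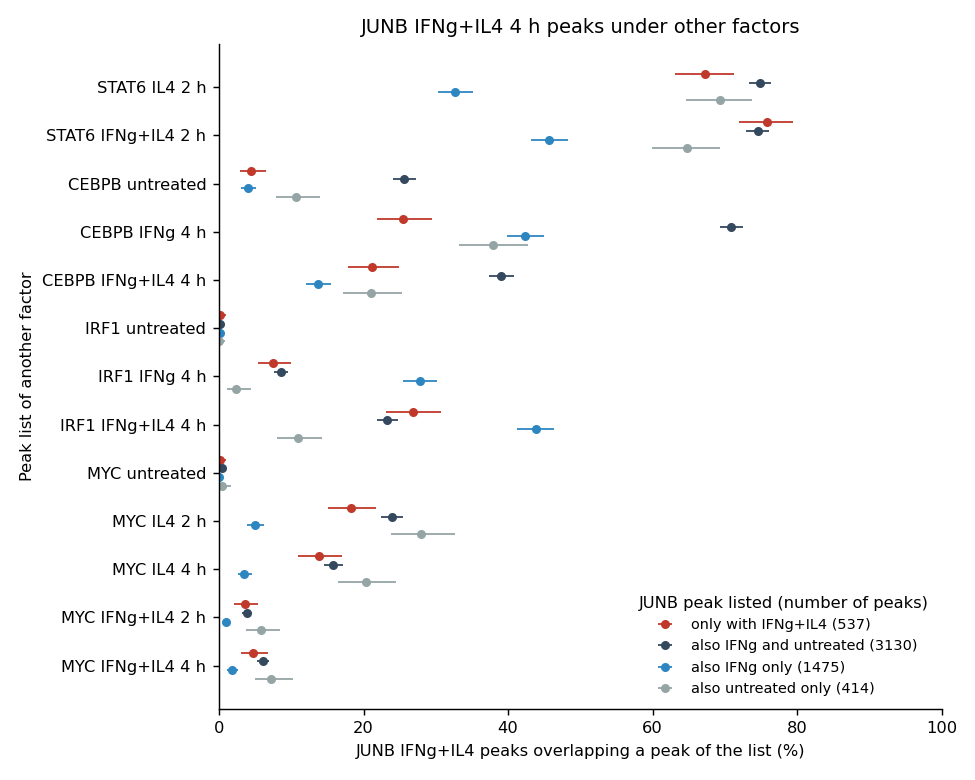
The share of JUNB IFNg+IL4 peaks (horizontal axis, %) that overlap a peak of each of 13 lists of other factors (vertical axis), for combination sites (red) and the other 3 classes; bars are exact 95% intervals. Combination sites stand with the common peaks for STAT6 with IFNg+IL4, at 75.8% and 74.5%. They stand below the common peaks for STAT6 with IL4, at 67.2% and 74.9%, and for CEBPB in IFNg, at 25.5% and 70.9%.

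The comparison was repeated at the strength of the combination sites, by weighting each class to their spread over 10 equal classes of −log10 p. The STAT6 IFNg+IL4 share was then 69.5% for common, 44.3% for IFNg-shared, 64.2% for untreated-shared and 60.2% for all other peaks, against 75.8% for combination sites. For the STAT6 list of IL4 alone the weighted shares were 71.8%, 33.0%, 69.2% and 58.2%, against 67.2%. Within the combination sites the share under STAT6 with IFNg+IL4 was 69.6% in the weakest class (78 of 112) and 90.5% in the eighth class (19 of 21). Each of the 10 sites of the 2 strongest classes was covered. For the same STAT6 list the IFNg-shared peaks ranged from 37.8% to 52.0% over the 10 classes, with no class reaching the lowest value of the combination sites, 69.4%.

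**Figure D2:**
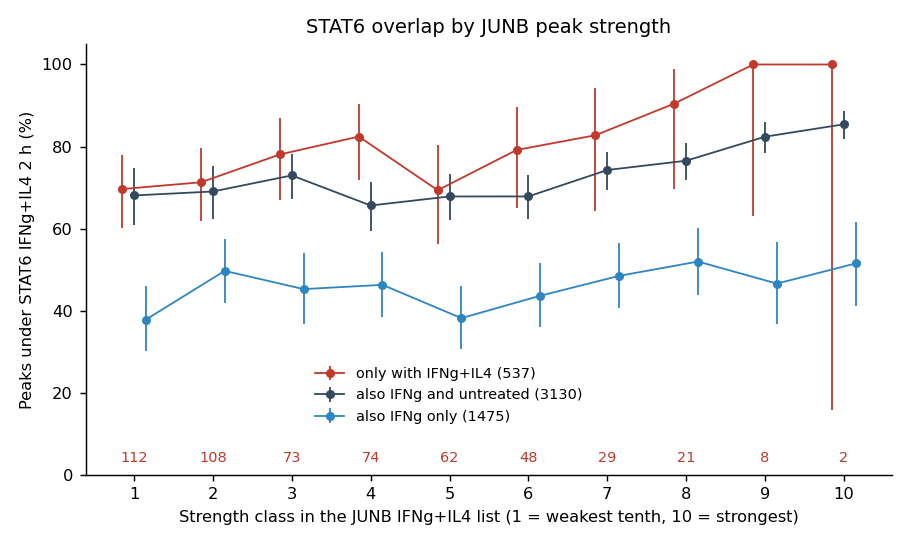
The share of JUNB peaks under a STAT6 IFNg+IL4 peak (%, vertical axis) in 10 equal classes of JUNB peak strength, with exact 95% intervals; the red numbers give the combination sites per class. Combination sites lie between 69.4% and 100% and IFNg-shared peaks between 37.8% and 52.0%.

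Most covered sites had a STAT6 peak in both STAT6 lists. Of the 537 sites, 350 (65.2%) lay under a STAT6 peak in both lists, 57 (10.6%) under one with IFNg+IL4 and not with IL4, and 11 (2.05%) under one with IL4 and not with IFNg+IL4. The other 119 (22.2%) had no STAT6 peak in either list. Peaks in both STAT6 lists covered 68.7% of common, 61.4% of untreated-shared and 28.9% of IFNg-shared peaks, and a peak with IFNg+IL4 and not with IL4 covered 5.85%, 3.38% and 16.7% of them. A STAT6 peak of either list was present at 418 (77.8%), beside 71.5% of all 5556 peaks.

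The STAT6 peaks at combination sites were strong within their own list. The 403 STAT6 IFNg+IL4 peaks that covered them had a median rank at the 88.8 percentile of that list by −log10 p, and 195 of them (48.4%) were in its top 10%. The same share was 16.9% for STAT6 peaks at common JUNB peaks, 18.7% at IFNg-shared peaks and 35.1% at untreated-shared peaks. In the STAT6 list of IL4 alone, 177 of 357 (49.6%) were in the top 10%, beside 17.4% at common, 19.7% at IFNg-shared and 36.7% at untreated-shared peaks. The difference between classes could not be tested with 1 library each. The JUNB and STAT6 summits were a median of 35 bp apart, and 346 of 407 pairs (85.0%) lay within 100 bp. That distance was about the same in the other classes, with medians of 33, 41 and 36 bp.

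**Figure D3:**
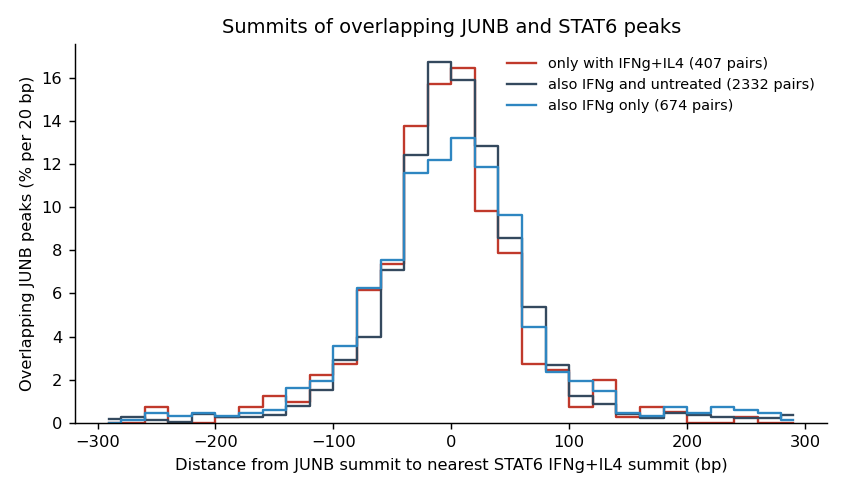
The distance in bp from the JUNB summit to the nearest summit of the STAT6 IFNg+IL4 list, as a percentage of overlapping JUNB peaks per 20 bp, for combination sites and 2 other classes. All 3 distributions centre near 0, and 85.0% of the combination sites lie within 100 bp.

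The 20 strongest combination sites were all covered by STAT6 in both lists. Among the 20 strongest IFNg-shared peaks, 4 were covered with IL4 and 12 with IFNg+IL4. Full cover was also seen for untreated-shared peaks in the 2 strongest classes, 12 of 12 and 2 of 2 in both STAT6 lists. In the eighth class, 11 of 12 untreated-shared peaks were covered with IL4 and 8 of 12 with IFNg+IL4. Common peaks of the 2 strongest classes stood at 80.3% and 83.4% with IL4 and at 82.4% and 85.4% with IFNg+IL4. The strongest site lay inside Il31ra, the gene of an interleukin 31 receptor subunit, at chr13:112551594-112551978, with a fold enrichment of 19.1, a −log10 p of 46.1 and 49 fragments at its summit. The nearest JUNB IFNg peak was 50.6 kb from it. A site 10.8 kb from Prdm1, the gene of the repressor BLIMP1, was at chr10:44539156-44539639 with a fold of 13.0 and a −log10 p of 41.4, and was also under CEBPB in IFNg and IFNg+IL4 and under IRF1 in IFNg+IL4. The site inside Trip4, a gene of a transcription coactivator, at chr9:65839764-65840158 had a fold of 16.4 and a −log10 p of 41.2, with the nearest JUNB IFNg peak 176 kb away. The site inside Casp6, the gene of an effector caspase, had a −log10 p of 36.7 and was under peaks of all 4 other factors.

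Several of these strong sites were far from any protein-coding gene. The second strongest, with a −log10 p of 44.4 and 63 fragments, was 176 kb from Spdye4c, its nearest protein-coding gene. Sites 181 kb from Mbnl1, a splicing factor gene, 639 kb from Nmbr, a bombesin receptor gene, 323 kb from Klf6, a zinc finger factor gene, and 182 kb from Eea1, an endosome tether gene, were also among the 20. The remaining nearest genes were Auh, Fam20b, Map2, Pecam1, Tnk2, Zfp961, Ppp2r3a, Arl15, Ankrd55, Glipr2 and Prnp. The −log10 p of the 20 ran down to 23.1. Nearness assigns no target.

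CEBPB, a leucine zipper factor of the myeloid lineage, covered fewer combination sites than common peaks. With IFNg, 137 of 537 (25.5%, 21.9 to 29.4) lay under a CEBPB peak, beside 56.5% of all JUNB peaks and 70.9% of common peaks. With IFNg+IL4 the count was 114 (21.2%, 17.8 to 24.9), beside 29.3% of all. In untreated cells it was 24 (4.47%), beside 16.7% of all. The IFNg-shared peaks stood at 42.4% with IFNg and 13.7% with IFNg+IL4, so their order against the combination sites differed between the conditions. Untreated-shared peaks stood at 37.9% with IFNg, 21.0% with IFNg+IL4 and 10.6% in untreated cells. Their share with IFNg+IL4 was thus about that of the combination sites. Common peaks stood at 39.1% with IFNg+IL4. The CEBPB list of IFNg held 21499 peaks and that of IFNg+IL4 held 6278, at depths of 1.33 and 1.31 relative to the input.

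Some combination sites had CEBPB with IFNg+IL4 and not with IFNg, which was rare in the other classes. Of the 137 sites under CEBPB with IFNg, 81 (59.1%, 50.4 to 67.4) were also under it with IFNg+IL4. That share was 54.8% for common, 51.0% for untreated-shared and 31.5% for IFNg-shared peaks. Of the 114 under CEBPB with IFNg+IL4, 33 (28.9%, 20.8 to 38.2) had no CEBPB peak with IFNg. The same was true of 8 of 1223 common peaks (0.654%), 5 of 202 IFNg-shared peaks (2.48%) and 7 of 87 untreated-shared peaks (8.05%). CEBPB with IFNg+IL4 was found at 108 of the 407 sites under STAT6 (26.5%) and at 6 of the 130 without it (4.62%). The other classes showed the same direction, with 44.9% and 22.2% for common, 24.2% and 4.87% for IFNg-shared and 28.7% and 6.85% for untreated-shared peaks. The CEBPB peaks at combination sites were not strong within their list, with a median at the 45.4 percentile and 9.73% in the top 10%.

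IRF1, the interferon-induced factor, covered combination sites about as often as it covered the whole JUNB list when both cytokines were present. The count was 144 of 537 (26.8%, 23.1 to 30.8) with IFNg+IL4, beside 28.1% of all JUNB peaks, and 40 (7.45%) with IFNg, beside 13.1% of all. In untreated cells 1 site was covered, beside 0.144% of all. The IFNg-shared peaks had higher shares, 43.8% with IFNg+IL4 and 27.8% with IFNg. Common peaks stood at 23.3% and 8.53%, and untreated-shared peaks at 10.9% and 2.42%. Weighted to the strength of the combination sites, the IFNg+IL4 shares were 18.0% for common, 41.8% for IFNg-shared and 10.1% for untreated-shared peaks. Of the 144 sites, 104 (72.2%) had no IRF1 peak with IFNg, beside 64.3% of such common peaks, 77.8% of untreated-shared and 37.5% of IFNg-shared peaks. The IRF1 lists held 8226 peaks with IFNg+IL4 and 4189 with IFNg, and no depth relative to the input could be recovered for either library. IRF1 with IFNg+IL4 was at 125 of the 407 sites under STAT6 (30.7%) and at 19 of the 130 without (14.6%). Here too the other classes showed the same direction, with 28.3% and 8.77% for common, 55.9% and 33.6% for IFNg-shared and 14.9% and 3.42% for untreated-shared peaks.

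MYC, a regulator of growth, covered 98 combination sites (18.2%) after 2 h of IL4, beside 18.6% of all JUNB peaks, and 74 (13.8%) after 4 h, beside 12.7%. With IFNg+IL4 it covered 19 (3.54%) at 2 h, beside 3.19%, and 25 (4.66%) at 4 h, beside 4.86%. In untreated cells it covered 1, beside 0.27%. These shares were near the background in each list. They were above the IFNg-shared peaks, which stood at 4.95% and 3.46% after 2 h and 4 h of IL4. They were below the common peaks, at 23.9% and 15.8%, and the untreated-shared peaks, at 28.0% and 20.3%, after the same times of IL4. Of the 98 sites, 91 (92.9%) were also under STAT6 with IL4, beside 91.0% of such common, 88.8% of untreated-shared and 80.8% of IFNg-shared peaks. No depth relative to the input could be recovered for the MYC libraries.

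Counting factors instead of lists, 85 combination sites (15.8%) had no peak of STAT6, CEBPB, IRF1 or MYC in any condition. Of these factors, 186 sites (34.6%) had 1, 159 (29.6%) had 2, 89 (16.6%) had 3 and 18 (3.35%) had all 4. In common peaks the shares with 0 to 4 factors were 7.35%, 21.4%, 39.6%, 25.2% and 6.42%. They were 23.9%, 30.6%, 26.3%, 17.3% and 1.90% in IFNg-shared peaks, and 18.1%, 30.7%, 32.4%, 16.2% and 2.66% in untreated-shared peaks. At least 1 list of another factor covered 452 combination sites (84.2%), beside 86.6% of all JUNB peaks. The strongest site with no other factor lay inside Vdr, the gene of the vitamin D receptor, at chr15:97880563-97880854, with a fold of 9.09, a −log10 p of 23.0 and 37 fragments. The next ones were inside Extl3, a heparan sulfate synthesis gene, with a −log10 p of 22.1, and inside Matk, the gene of a kinase that restrains Src family kinases, with 19.7. Cited2, Rnf13, Oxtr, Mat2b, Fam174a, Bloc1s6 and Baiap2 were the nearest genes of the following 7, whose −log10 p ran from 19.6 to 16.4.

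Combination sites lay mostly away from gene starts. Of the 521 on chromosomes with start positions in the promoter table, 28 (5.37%) were within 1 kb of a start, 87 (16.7%) at 1 to 10 kb, 206 (39.5%) at 10 to 50 kb and 200 (38.4%) farther away. The median distance was 32.6 kb, beside 38.0 kb for common, 32.9 kb for IFNg-shared and 35.9 kb for untreated-shared peaks. Inside the span of a protein-coding gene were 281 of 537 (52.3%), beside 49.4%, 52.6% and 50.7% in those classes. Their positions were thus close to those of the other JUNB peaks.

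The strongest site within 1 kb of a start was that of Tfec, at chr6:16898501-16898837, with its summit 250 bp before the start, a fold of 8.73, a −log10 p of 22.3 and 37 fragments. It was under STAT6 in both lists, CEBPB in all 3 lists and IRF1 with IFNg+IL4. The nearest JUNB IFNg peak was 509 kb and the nearest untreated JUNB peak 6.32 kb away. The next 9 of the 28 by strength were at Matk (2 sites), Syce1l, Aff1, Ifi203, St7, Tes, Zyx and Ppfibp2, with −log10 p from 19.7 to 13.1. Syce1l and Mon1b both span the same site. At Ifi203 the summit was 33 bp before a start and lay under STAT6 with IFNg+IL4 and not with IL4. At Zyx it was 81 bp before the start, under STAT6 in both lists and MYC with IL4.

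A combination site lay within 20 kb of 556 of 21887 protein-coding genes, 2.54%. Of these genes 513 had 1 site, 41 had 2, and 2 genes had 3, Fmnl2 and Nsl1. For 257 of the 556 (46.2%) no JUNB IFNg peak lay within the same window, and for 181 neither an IFNg nor an untreated JUNB peak did. The rule removed peaks by these same 2 lists, so such absences are partly built in. The same shares were not computed over all genes or for the other classes, so the 46.2% is only a description. A STAT6 peak of either list lay in the window of 532 (95.7%), beside 53.4% of all protein-coding genes, and beside 96.3% of the genes near a common peak, 91.8% near an IFNg-shared peak and 94.7% near an untreated-shared peak.

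Of 35 IL4 response genes, 10 had a combination site within 20 kb (28.6%, 14.6 to 46.3), beside 2.54% of all genes. They were Arg1, Batf3, Bcl6, Cish, Hbegf, Mgl2, Pdcd1lg2, Pparg, Slc7a2 and Socs1. The list was drawn up with earlier results of these data known, and in the same window 9 of the 35 genes had a common peak, 8 an IFNg-shared peak and 3 an untreated-shared peak, beside 10.5%, 5.94% and 1.90% of all genes. The count of 10 fell to 6 when sites within 500 bp of another JUNB peak were left out, without Bcl6, Cish, Mgl2 and Socs1. It was also 6 among sites with a −log10 q of at least 5, without Cish, Hbegf, Slc7a2 and Socs1.

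**Figure D4:**
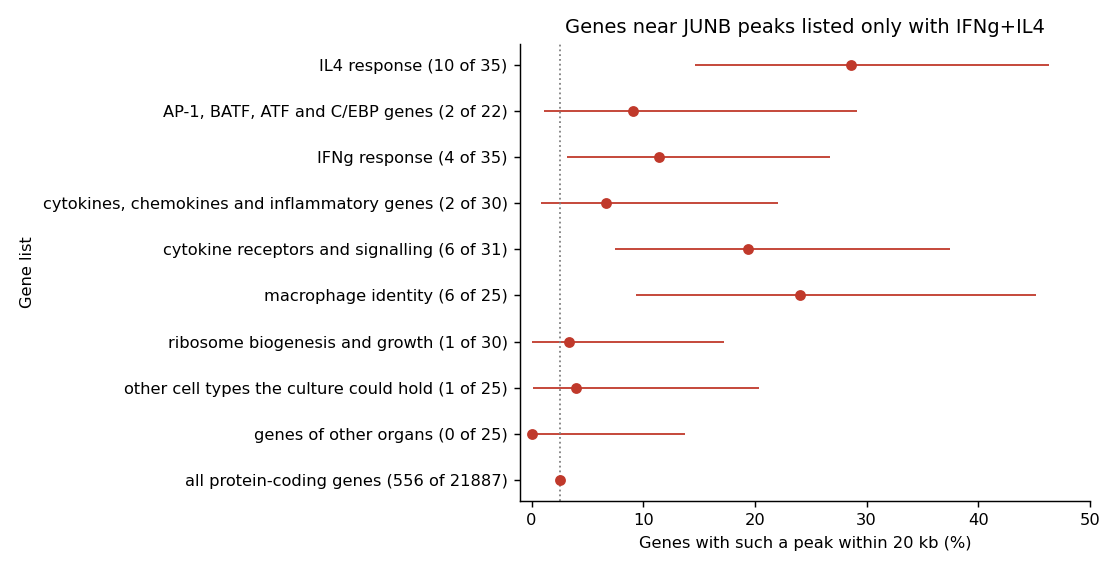
The percentage of genes of 9 lists with a combination site within 20 kb (horizontal axis, exact 95% intervals), with the counts beside the list names; the dotted line is the 2.54% of all protein-coding genes. The IL4 response list stands highest at 28.6%, and no gene of the list of other organs has a site.

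Arg1, the gene of arginase 1 and a hallmark of IL4 activation, had 2 combination sites and no JUNB peak of another list in its window. The site at chr10:24927927-24928284 was 0.736 kb outside the gene's span, with a fold of 8.04 and a −log10 p of 14.0. The site at chr10:24930214-24930479 was 2.90 kb outside it, with a fold of 5.77, a −log10 p of 10.7 and 21 fragments. Both were under STAT6 in both lists, IRF1 with IFNg+IL4 and MYC after 2 h of IL4, and the farther one also under CEBPB in all 3 lists. The nearest JUNB IFNg peak was 390 kb from the nearer site, and the nearest untreated peak 292 kb.

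Batf3, an AP-1 partner gene of the dendritic cell lineage, also had 2 sites. That at chr1:191086628-191086835 was 11.7 kb before its start with a −log10 p of 12.1, and that at chr1:191111321-191111609 was 13.0 kb past its start and 2.49 kb outside its span, with a −log10 p of 13.0 and 38 fragments. Both were under STAT6 in both lists and IRF1 with IFNg+IL4, and the latter was also under CEBPB with IFNg and with IFNg+IL4. No JUNB IFNg peak lay in the window, but an untreated JUNB peak was 1.16 kb from the latter site. Nsl1, a kinetochore gene beside Batf3, shares the former site with it.

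The site of Pdcd1lg2, at chr19:29410818-29411042, had its summit 14 bp before the start shown above, with a fold of 5.50, a −log10 p of 9.32 and 19 fragments. It was under STAT6 in both lists, IRF1 with IFNg+IL4 and MYC after 2 h and 4 h of IL4. The nearest JUNB IFNg peak was 8.25 kb away. The site of Pparg, the gene of a lipid-sensing nuclear receptor, was inside the gene 47.4 kb past a start, with a −log10 p of 9.31. It was under STAT6 in both lists and under no other factor. At Mgl2, the gene of a C-type lectin of alternatively activated macrophages, the site was 15.8 kb before the start with a −log10 p of 21.5, and a JUNB IFNg peak was 0.302 kb away.

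**Figure D5:**
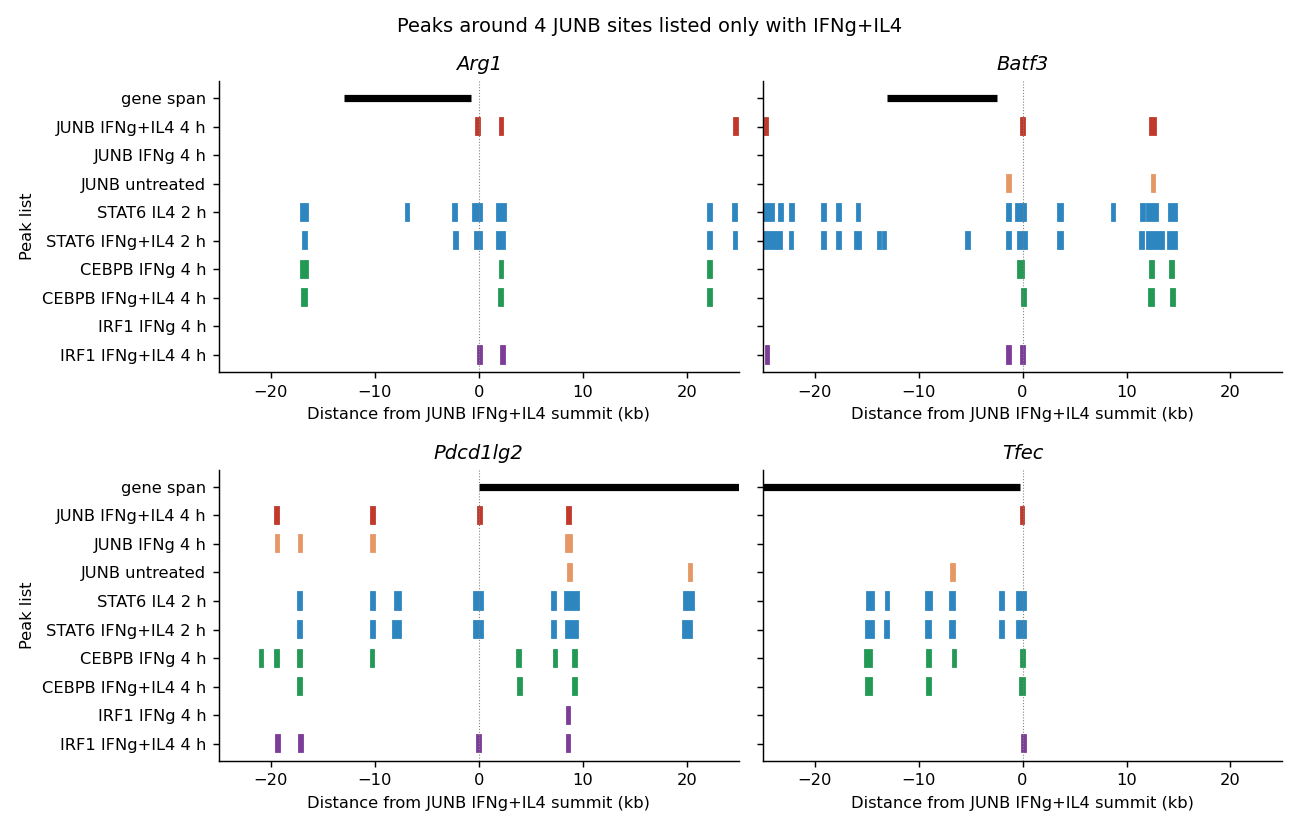
Peaks of 9 lists (rows) and the gene span (black) within 25 kb of the strongest combination site of Arg1, Batf3, Pdcd1lg2 and Tfec, with the distance from that site's JUNB summit in kb; narrow peaks are drawn wider than they are so as to be visible. At the Arg1 sites within 20 kb of the gene, STAT6 and IRF1 peaks coincide with JUNB IFNg+IL4 peaks. The JUNB IFNg and untreated rows of that panel are empty. A further JUNB IFNg+IL4 peak there, starting 24.6 kb from the summit, coincides with STAT6 peaks and with no IRF1 peak.

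The remaining IL4 response genes had sites with −log10 p from 5.47 to 10.6. At Socs1, an inhibitor of JAK kinases, the summit was 1.68 kb before the start with a −log10 p of 5.47, close to the weakest of the 537, and a JUNB IFNg peak lay 0.078 kb from the site. At Cish, a STAT-induced inhibitor, the −log10 p was 7.29 with an untreated JUNB peak 0.298 kb away. At Bcl6, the gene of a repressor, the summit was 139 bp before the start with a −log10 p of 10.6, under IRF1 in all 3 lists, and a JUNB IFNg peak was 0.222 kb away. The site inside Slc7a2, an arginine transporter gene, had a −log10 p of 8.41 and no peak of another factor, and at Hbegf, a growth factor gene, the −log10 p was 5.86.

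Among 31 genes of cytokine receptors and signalling, 6 had a site (19.4%, 7.45 to 37.5), beside 2.54% of all genes. A common peak lay near 11 of the 31, an IFNg-shared peak near 5 and an untreated-shared peak near 4. The 6 genes with a combination site were Cish, Csf2rb2, Csf3r, Il10ra, Jak2 and Stat3. Csf3r, the receptor gene of granulocyte colony-stimulating factor, had 2 neighbouring sites, with −log10 p of 20.0 and 12.6, both under STAT6 and CEBPB. The site at Csf2rb2, a receptor subunit gene of the interleukin 3 family, had a −log10 p of 19.4 and 45 fragments, and that at Jak2, a receptor-bound kinase gene, 15.2. At Stat3 the summit was 228 bp before the start with a −log10 p of 6.61, under STAT6, IRF1 with IFNg+IL4 and MYC in the 4 treated lists. At Il10ra the −log10 p was 11.2, and the site was under STAT6 with IFNg+IL4 and not with IL4.

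The macrophage identity list had 6 of 25 genes near a site (24.0%, 9.36 to 45.1), beside 2.54% of all genes. Near a common peak were 15 of the 25. The 6 genes were the Fc receptor genes Fcgr2b, Fcgr3 and Fcgr4, Cd300a, Mertk, a receptor kinase for apoptotic cells, and Tfec. Fcgr3 and Fcgr4 share a site with a −log10 p of 22.4 and a fold of 10.3. The sites at Fcgr2b, Cd300a and Mertk had −log10 p of 10.7, 12.2 and 14.4, and all of them were under STAT6 in both lists.

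IFNg response genes had a combination site in 4 of 35 cases (11.4%, 3.20 to 26.7), beside 2.54% of all genes. An IFNg-shared peak lay near 13 of the 35 and a common peak near 11. The 4 genes were Cd40, Gbp2, Irgm1 and Socs1, and each also had a JUNB IFNg peak in its window. The −log10 p was 9.02 at Cd40, a costimulatory receptor gene, 8.72 at Gbp2, a guanylate-binding protein gene, and 9.38 at Irgm1, an immunity-related GTPase gene. Of 30 cytokine, chemokine and inflammatory genes 2 had a site (6.67%), Ccl2 and Ccl7, which share it, and 19 had a common peak.

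Of 22 genes of AP-1, BATF, ATF and C/EBP proteins 2 had a site (9.09%), Batf3 and Cebpa, beside 2.54% of all genes. A common peak lay near 3 of the 22, an IFNg-shared peak near 2 and an untreated-shared peak near 3. The site at Cebpa, the gene of a master regulator of myeloid cells, was 20.9 kb past the start with a −log10 p of 16.4, under STAT6 in both lists. Rrp9 was the 1 gene of 30 in the growth list (3.33%), near the 2.54% of all genes. Pecam1, an endothelial and leukocyte adhesion gene, was the 1 of 25 (4%) in the list of other cell types the culture could hold. None of 25 genes of other organs had a site, for which the interval reaches 13.7%.

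Fmnl2, a formin gene, had 3 sites inside its span, with −log10 p of 16.3, 14.3 and 8.41, all under STAT6 in both lists. Trip4 and Zfp609 share 2 sites, and Apba3, Matk and Mrpl54 share 2 others. Arl15 had 2, with −log10 p of 23.9 and 11.8, both under STAT6. The site near Ncf4, a subunit gene of the phagocyte oxidase, that it shares with Csf2rb2 was under STAT6, and its other site, with a −log10 p of 14.4, was under no other factor. Neither of the 2 sites of Vdr was under STAT6.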

How the data were processed

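The data were 17 ChIP-seq libraries (16 ChIP and 1 input), each a group of its own. The submitters' processing notes name Bowtie2 2.2.6, MACS2 2.1.0.20150731 and the build mm10/GRCm38, and what settings were used is not given in the sources. Peaks were called per sample. The deposited fold is the ratio of summit signal to control, the deposited −log10 p and −log10 q come from the same step, and the deposited score is 10 times the −log10 q, or the −log10 p for untreated JUNB. The deposited last column is the summit offset. These values are the authors' and were used to describe and rank peaks within a list.

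Only chromosomes 1 to 19, X and Y entered, and peaks overlapping the 139 input peaks were removed, which took none of the JUNB IFNg+IL4 peaks. Overlap needed 1 bp. Library depth relative to the input and fragments per summit were recovered, where possible, from the fold and −log10 p, assuming 1 input and linear scaling. A gene was near a summit within 20 kb of its RefSeq GRCm38.p6 span. Of 21887 protein-coding genes, 17492 have a start in the promoter table, which holds none on chromosome 18. The 258 list entries all matched. No genome came with the files, so the motif search ran on promoters in place of all peaks. Scripts used Python 3.11.15, numpy 2.4.6, pandas 2.3.3 and scipy 1.17.1 and were tested on simulated data.

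The members and gene lists were chosen with earlier results of these data known. Genes named were list genes with a site within 20 kb, the nearest genes of the 20 strongest sites, of the 10 strongest with no other factor and of the 10 strongest within 1 kb of a start, and the 10 genes with most sites.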

Additional observations from a re-analysis of the deposited data

How the results depend on the processing

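No paired analysis was possible because each group was 1 library, and for the same reason none could be left out. Of 48 alternative values for the site counts and shares, 30 stayed within the interval of the reported share or within 1.5 times the reported count. Counting a site as covered only where summits lay within 100 bp gave 64.4% (STAT6 IFNg+IL4), 57.0% (STAT6 IL4), 20.5% (CEBPB IFNg), 17.5% (CEBPB IFNg+IL4), 21.4% (IRF1 IFNg+IL4) and 14.7% (MYC IL4 2 h). With peaks of the other list at a −log10 q of at least 5, IRF1 IFNg+IL4 gave 22.9% and MYC IL4 2 h 14.2%. Both settings lower shares by their construction. Genes near a site numbered 342 within 5 kb and 978 within 50 kb. The IL4 response genes near a site numbered 6 without sites within 500 bp of another JUNB peak and 6 among JUNB peaks with a −log10 q of 5 or more.

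In an alternative added after seeing the data, the IFNg list alone removed peaks. This gave 951 sites, 71.0% under STAT6 IFNg+IL4, 30.9% under CEBPB IFNg, 19.9% under IRF1 IFNg+IL4, 22.5% under MYC IL4 2 h, and 933 genes. All other JUNB peaks then stood at 29.9% under IRF1 IFNg+IL4, beside 28.3% by the rule used. The share under STAT6 IFNg+IL4 was then 5.70 percentage points above that of all other JUNB peaks, beside 10.6 points by the rule used. It stayed above that of all other peaks under each alternative for which it was computed, which leaves out 2 alternatives for the number of sites (peaks removed only by their summit, and input peaks kept). The number of sites was 510 to 669 under the alternatives with a different overlap or untreated threshold, 537 with input peaks kept and 436 with a −log10 q of 5 or more.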

Other observations

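The IRF letters (GAAA, any 2 bases, GAAA) stood in 4 promoter windows under combination sites, at Ifi203, Ifi205 and the predicted genes Gm33582 and Gm31156, which were chosen after their values were seen. The match at Gm33582 (GAAACTGAAA) was 9 bp from the JUNB summit and that at Gm31156 (GAAAATGAAA) 30 bp, and both sites were under IRF1 with IFNg and with IFNg+IL4. At Ifi205 the match GAAATTGAAA was 72 bp from the summit, under IRF1 with IFNg+IL4. At Ifi203 the match GAAATCGAAA was 182 bp away and outside the peak, and the site was under no IRF1 peak.

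By chromosome, the combination sites numbered from 8 on chromosome X to 59 on chromosome 2, with none on chromosome Y.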
